A study of Homo sapiens with 21 samples.

Results

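The comparison concerns 7 human hepatocellular carcinoma (HCC) cell lines, of 21 cancer lines in the series and 11 of HCC origin. These 7 lines make less of the hepatocyte gene program than the HCC lines Huh-1 and PLC/PRF/5. They were divided by their measured level of a matrix and motility program, the genes of collagen deposition, matrix cross-linking, cytoskeleton and cell movement. The matrix-high lines were SK-HEP-1, SNU-739, SNU-423 and SNU-886, and the matrix-low lines were HLF, JHH-4 and JHH-6. The HCC lines Huh-1, PLC/PRF/5 and Hep3B were left out, and SNU-475 was kept apart as a line that the division did not use. Because the same arrays chose the groups, the program genes and the hepatocyte genes are described below without a test. The p-values of other genes compare these 7 lines and are no independent evidence.

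All lines were untreated and read once each on an Illumina BeadChip, an expression array of bead-bound probes, so the spread is that between lines. The series was designed around growth dependence on LSD1 (KDM1A), a histone demethylase; the dependence of each line was not analysed here. Per the labels, JHH lines came from JCRB and grew in William's E medium. The SNU lines (from KCLB) and the ATCC lines grew in DMEM or RPMI 1640, all with 10% fetal bovine serum. For JHH-4 and JHH-6, cell bank and medium cannot be told apart from the group, and the labels name no bank for HLF. SK-HEP-1 is known as a line of endothelial character, although the labels call it HCC. The arrays detected 32.6% to 35.1% of the listed genes, and the background was highest on the array of SK-HEP-1 (176 intensity units, against 85.5 to 116).

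Hepatocytes secrete albumin, apolipoproteins and clotting factors under the control of factors such as HNF4A, and poorly differentiated HCC cells can lose this output. Mesenchymal cells instead deposit fibrillar collagens, cross-link them with lysyl oxidases and carry vimentin and actin filaments for movement. Carcinoma cells can take up parts of that program independently of each other, so a high collagen level need not come with a high motility level.

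Levels are log2 intensities after background correction and quantile normalization, on which 1 unit is a doubling. "Not detected" means a deposited detection p-value of 0.05 or more. The detection floor, the lowest level called detected on an array, lay between 4.84 and 4.97. The program mean was 10.49 in SNU-739, 10.09 in SNU-423, 9.39 in SK-HEP-1 and 9.19 in SNU-886, against 9.25 in HLF, 8.83 in JHH-6 and 8.62 in JHH-4. SNU-886 lay just below HLF on this scale; with median scaling all 4 matrix-high lines lay above every matrix-low line. All 10 arrays of the raw table were also normalized together, which gives a separate scale. On it Huh-1 and PLC/PRF/5 had program means of 7.12 and 7.22 and Hep3B 8.03. The 7 lines ran from 8.48 in JHH-4 to 10.33 in SNU-739 on that scale.

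**Figure D1:**
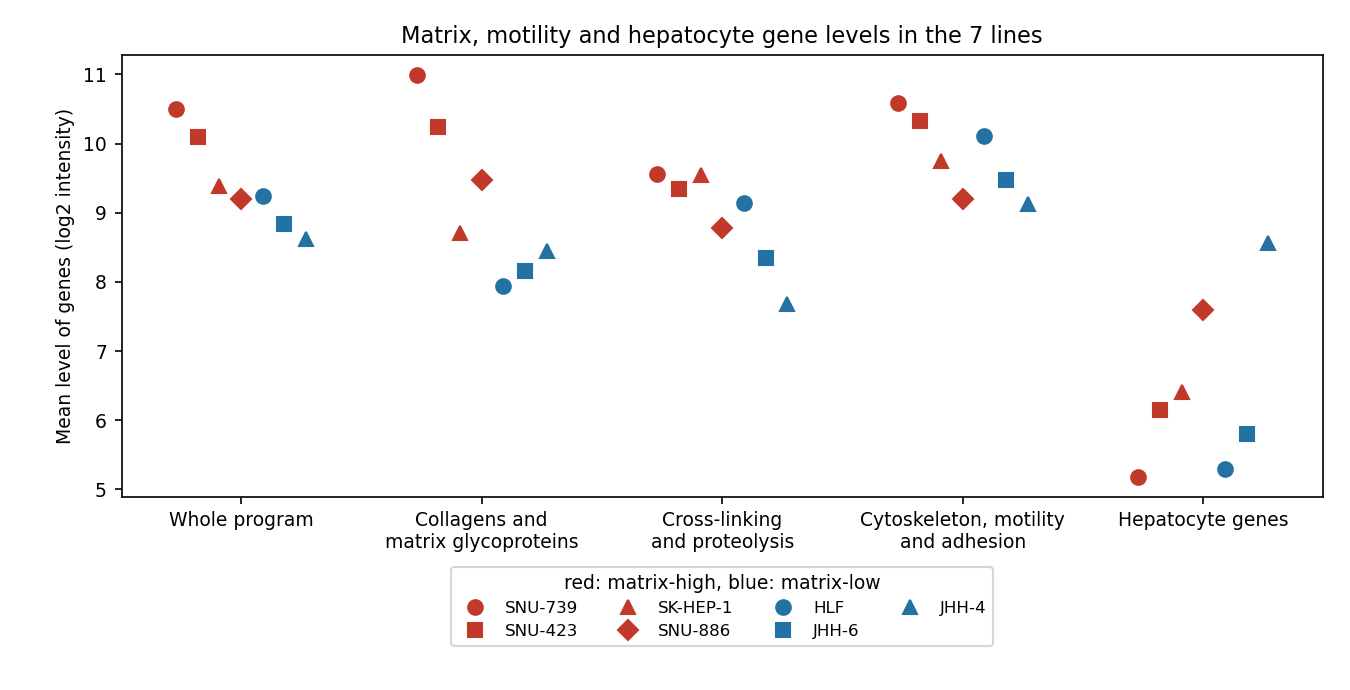
Mean level (log2 intensity, vertical axis) of the tested genes of the whole program, its 3 component lists and the hepatocyte list in the 4 matrix-high lines (red) and the 3 matrix-low lines (blue), 1 point per line. The collagens and matrix glycoproteins are the only component list in which all red points lie above all blue points; SNU-886 (9.19) lies below HLF (9.25) on the whole program.

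The collagens and matrix glycoproteins carried the division. Their mean was 10.99 in SNU-739, 10.24 in SNU-423, 9.48 in SNU-886 and 8.70 in SK-HEP-1, against 8.44 in JHH-4, 8.16 in JHH-6 and 7.94 in HLF, so that the groups did not overlap. Of 32 such genes tested, 29 were higher on average in the matrix-high lines and the median difference was 1.56. The cross-linking and proteolysis genes followed less closely (18 of 22 higher, median 1.00), and the cytoskeleton, motility and adhesion genes were near even (28 of 51 higher, median 0.01, difference of the means 0.39). HLF had the third highest motility mean of the 7 lines, 10.11, behind SNU-739 (10.59) and SNU-423 (10.32). The motility genes thus ranked the lines otherwise than the collagens did.

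Only a few program genes separated the groups line by line. Of 105 tested, 5 lay higher in every matrix-high line than in any matrix-low line and 1 lay lower in every one; over all 13684 tested genes, 2.45% were so separated upwards and 3.68% downwards, and since these genes chose the lines nothing is read from the count. COL1A1, the main chain of type I collagen, was at 13.61 in SNU-739, 13.52 in SNU-423, 10.25 in SNU-886 and 8.57 in SK-HEP-1, against 6.53 in HLF, 5.60 in JHH-4 and 4.92, not detected, in JHH-6. The groups were clear of each other, but SNU-739 and SNU-423 lay well above the other matrix-high lines. ACTA2, smooth muscle actin, was at 15.70 in SNU-739, 12.69 in SK-HEP-1, 10.51 in SNU-423 and 10.38 in SNU-886, against 8.27 in HLF, 6.70 in JHH-6 and 5.08, not detected, in JHH-4. COL5A2, a chain of type V collagen that regulates fibril width, ranged from 10.98 to 12.86 against 6.63 to 10.33. SPARC, a collagen-binding glycoprotein, and ADAMTS1, a matrix protease, were also separated, with differences of 1.88 and 1.91 but gaps of only 0.01 and 0.02. ITGB3, the beta subunit of the vitronectin receptor, was the gene separated the other way, with a difference of -1.11.

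The partner chain of COL1A1 did not follow it in every line. COL1A2 was at 14.12 in SNU-739 and 12.48 in SNU-423, but at 5.96 in SNU-886 and 4.64, not detected, in SK-HEP-1, where COL1A1 was still at 8.57. It was not detected in any matrix-low line (4.68 to 4.83). COL3A1, the chain of type III collagen, was at 13.24 in SNU-739, 10.55 in SNU-886 and 8.83 in SK-HEP-1 but not detected in SNU-423 (4.52), and it was detected in HLF (6.66). LUM, the small proteoglycan lumican, was highest in SNU-886 (12.01) and not detected in SK-HEP-1 (5.36).

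The markers COL6A3 and AXL and the program genes VIM and GREM1 did not separate the groups. Of these, only AXL was lower on average in the matrix-high lines (difference -0.76). COL6A3, a chain of type VI collagen, was at 13.77 in SNU-423, 10.19 in SNU-886, 9.93 in SNU-739 and 6.95 in SK-HEP-1, while JHH-6 (12.48) and JHH-4 (12.04) exceeded all but SNU-423. AXL, a receptor tyrosine kinase linked to invasive growth, was high in all 7 lines and highest in JHH-4 (13.99), with 11.52 to 12.84 in the matrix-high lines. VIM, vimentin, the intermediate filament of mesenchymal cells, was at 14.49 to 14.76 in the matrix-high lines and 14.87 in HLF, but at 8.95 in JHH-4 and 4.61, not detected, in JHH-6. JHH-6 thus combined an abundant COL6A3 and AXL signal with no detectable vimentin. GREM1, a secreted BMP antagonist, was likewise as high in JHH-6 (11.45) as in SNU-423 (11.49) and not detected in HLF or JHH-4.

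Hepatocyte genes were lower in all 7 lines than in Huh-1 and PLC/PRF/5, but not equally so. The mean of the 11 tested was highest in JHH-4 (8.56) and SNU-886 (7.59), against 5.18 to 6.41 in the other lines. Over all 35 on the array, JHH-4 (6.21) and SNU-886 (6.22) were level. On the scale of 10 arrays, JHH-4 (8.40) and SNU-886 (7.44) lay above Hep3B and below PLC/PRF/5 (9.94) and Huh-1 (10.8). Of 35 on the array, 16 were detected in SNU-886, among them ALB and HNF4A. SNU-739 had 2 and the other 5 lines had 5 to 9, with 9 in JHH-4. Huh-1 and PLC/PRF/5 had 27 and 26, and Hep3B had 10. The array of Hep3B detected only 24.9% of the listed genes, against 32.6% to 35.1% in the 7 lines. Neither the count nor the mean of Hep3B can therefore be set directly beside the others. Endothelial marker genes were detected in small numbers in every line, 6 of 25 in SK-HEP-1, 6 in SNU-739 and 7 in JHH-6 against 3 or 4 in the rest, and ICAM2 and PECAM1 were among them everywhere. Markers detected in a single line were KDR in SK-HEP-1, TEK in SNU-739, ROBO4 in SNU-423 and CLDN5, EGFL7 and SELE in JHH-6. CDH5 and VWF, which define endothelium, were detected in no line. The summed intensity of the endothelial markers was 881 to 3784 in the matrix-high and 882 to 2299 in the matrix-low lines. Hepatic stellate markers numbered 7 of 13 in SNU-739, 6 in SNU-423, 5 in SNU-886, 4 in JHH-4 and 3 in each of SK-HEP-1, HLF and JHH-6, counting ACTA2, DCN, LUM and PDGFRB of the program. The stellate markers LRAT and RELN were detected in no line. Cholangiocyte markers were detected more widely, from 7 of 14 in HLF to 11 in SNU-886, with KRT7 and SOX9 in every line. Leukocyte markers numbered from 2 of 20 in HLF to 7 in SNU-886. Each sample is a cultured line read as a whole, so expression in fewer of its cells and less RNA per cell cannot be told apart. The part of these marker differences in the results below was not tested.

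SNU-475 served as a check, normalized with the other lines on 8 arrays. Its program mean of 9.80 lay between those of SNU-423 (10.16) and SK-HEP-1 (9.45) on that scale, its COL1A1 level was 12.97 and its ACTA2 level 15.70. By its program mean it therefore stood with the matrix-high lines. The other markers did not place it there: COL6A3 was at 8.35, below JHH-4 (12.11) and JHH-6 (12.55). AXL, at 10.96, was the lowest of the 8 lines. Its mean over COL1A1, COL6A3 and AXL was 10.76, between JHH-4 (10.61) and SNU-886 (11.17).

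Outside the program and hepatocyte lists, the question was whether stress genes and other genes follow the division. None passed: limma's moderated test with Benjamini-Hochberg adjustment over all 13684 tested genes called 0 of the 13568 genes outside the lists (0% called over all tested genes), 645 of them had an unadjusted p under 0.05, which is 4.75%, and the smallest adjusted p was 0.114. In simulated data of the same size, the test called 0 of 50 genes changed by 1 log2 unit, 19 of 50 changed by 2, 37 of 50 by 3 and 40 of 50 by 4. The simulation drew independent noise with each gene's own spread, and the changed genes were picked at random. For such genes a difference of 1 unit was not called with 4 and 3 lines, and genes of small spread were not examined apart. For a single value the smallest p of an exact two-sided permutation test is 0.0571. The values below are descriptions of these lines.

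Of the 13568 genes outside the lists, 330 (2.43%) were higher in every matrix-high line than in any matrix-low line and 503 (3.71%) were lower in every one. Few of them were far apart: over all tested genes, 18 (0.132%) had a gap of at least 1 log2 unit with the matrix-high lines above and 7 (0.0512%) with the matrix-low lines above. The genes with the widest gaps in each direction are described next. Of 15 so chosen in the upward direction, 10 were not detected in any matrix-low line, and of 15 in the downward direction 3 were not detected in any matrix-high line.

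The widest gaps in each direction belonged to EFNB2 and WDR72. Their promoter sequences are shown because these genes had the sharpest contrast between the groups, detected in every line on one side and in none on the other. Each is a window of 300 bases around the start of the gene, on the minus strand of GRCh38.p14, as given by RefSeq, with every CG dinucleotide, the site of DNA methylation, in capitals.
EFNB2, chr13:106535613-106535912: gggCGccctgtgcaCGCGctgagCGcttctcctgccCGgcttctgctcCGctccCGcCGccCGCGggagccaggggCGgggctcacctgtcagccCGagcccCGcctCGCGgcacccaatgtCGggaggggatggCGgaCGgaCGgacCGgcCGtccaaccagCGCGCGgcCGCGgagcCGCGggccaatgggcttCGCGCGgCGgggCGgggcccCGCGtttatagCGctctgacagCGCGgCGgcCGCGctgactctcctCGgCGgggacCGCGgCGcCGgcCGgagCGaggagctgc
WDR72, chr15:53762829-53763128: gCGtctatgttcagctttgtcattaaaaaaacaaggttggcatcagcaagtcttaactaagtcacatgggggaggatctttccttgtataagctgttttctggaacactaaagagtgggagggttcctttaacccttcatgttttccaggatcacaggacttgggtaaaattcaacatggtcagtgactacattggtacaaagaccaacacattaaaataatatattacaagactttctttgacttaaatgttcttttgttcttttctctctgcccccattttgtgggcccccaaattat
The EFNB2 window holds 49 CG dinucleotides, more than 98.4% of 35116 promoters of the same length, and is 78.7% G or C. The WDR72 window holds 1, with 3.96% of promoters holding fewer, and is 38.7% G or C. The median promoter holds 14. Methylation was not measured.

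EFNB2 encodes ephrin-B2, a membrane-bound ligand of Eph receptors that marks arterial endothelium. Its level was 10.53 in SNU-423, 9.95 in SNU-886, 9.66 in SNU-739 and 8.76 in SK-HEP-1, against 5.49 in HLF, 5.43 in JHH-4 and 5.16 in JHH-6, where it was not detected. All matrix-high lines lay far above all matrix-low lines, at least 20.6-fold on average (difference 4.37, SE 0.43, limma adjusted p = 0.114). It passed when SK-HEP-1 was left out (4.72, limma adjusted p = 0.0205). SNU-475, with a level of 6.62, was nearer the matrix-low lines for this gene. The receptor EPHB4 had 8.53 to 9.95 in the matrix-high lines against 6.08 in HLF, 6.27 in JHH-6 and 8.62 in JHH-4 (difference 2.11, limma adjusted p = 0.973). EFNB1, a second ephrin ligand, was also separated, at 5.79 to 7.03 against 5.33 to 5.56, close to the floor.

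FOXD1, a forkhead transcription factor of the renal stroma, showed the largest mean difference among the separated genes described outside the program. Its level was 13.40 in SK-HEP-1, 11.07 in SNU-739, 8.91 in SNU-423 and 6.68 in SNU-886, against 4.43 to 4.55, not detected, in the matrix-low lines. The matrix-high lines were spread widely, so that a difference of at least 35.2-fold on average came with an SE of 1.38 log2 units and a limma adjusted p of 0.973. SNU-475 had a level of 10.10.

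ALDH1A3, an enzyme that makes retinoic acid, was at 10.91 in SK-HEP-1, 10.36 in SNU-423, 8.39 in SNU-886 and 6.82 in SNU-739, and at 4.55 to 4.95, not detected, in the matrix-low lines (at least 18.6-fold higher on average, limma adjusted p = 0.973). RBP7, a cellular retinol-binding protein, was at 10.38 in SK-HEP-1, 9.44 in SNU-739, 6.91 in SNU-423 and 6.69 in SNU-886, and at 4.63 to 4.97, not detected, in the others (at least 10.8-fold). SNU-475 expressed both, at 7.51 and 8.04. The related enzyme ALDH1A1 did not follow: it was at 9.69 to 10.31 in the matrix-low lines and from 4.73, not detected, in SK-HEP-1 to 10.97 in SNU-886 in the others.

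PPP1R14A, an inhibitor of the smooth muscle myosin phosphatase, was at 10.57 in SNU-423, 8.99 in SNU-886, 8.92 in SK-HEP-1 and 8.07 in SNU-739, against 6.67 in HLF, 6.29 in JHH-4 and 5.68 in JHH-6 (difference 2.93, SE 0.58). VGLL3, a cofactor of TEAD transcription factors, was at 5.73 to 8.31 in the matrix-high lines and not detected in the others. WWTR1 (TAZ), the transcriptional co-activator that works through TEAD, ran the other way at 5.83 to 7.98 against 8.14 to 9.23 (difference -2.19). NF2 (merlin), a tumour suppressor upstream of that pathway, did too, at 5.50 to 6.18 against 7.02 to 7.48. Each of these 4 genes had a limma adjusted p of 0.973. The 20 tested genes of the YAP and TEAD list had a median difference of -0.03, close to the median over all tested genes, -0.05.

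Other upward genes with wide gaps follow. MXD4, a MAX partner that opposes MYC, was at 10.04 to 11.27 against 8.52 to 8.66. ROR2, a receptor for WNT5A, was at 6.13 to 7.83 and not detected in the matrix-low lines or in SNU-475. COPZ2, a coatomer subunit, was at 6.50 to 8.70 and not detected in the matrix-low lines. RTL8B, a gene derived from a retrotransposon whose near-identical relatives the array may not tell apart, was highest in SNU-423 and at 6.53 to 6.68 in the other matrix-high lines, against 4.45 to 4.54. MAP6D1, ZNF618 and BOLA1 had gaps of 1.16, 1.05 and 1.03.

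**Figure D2:**
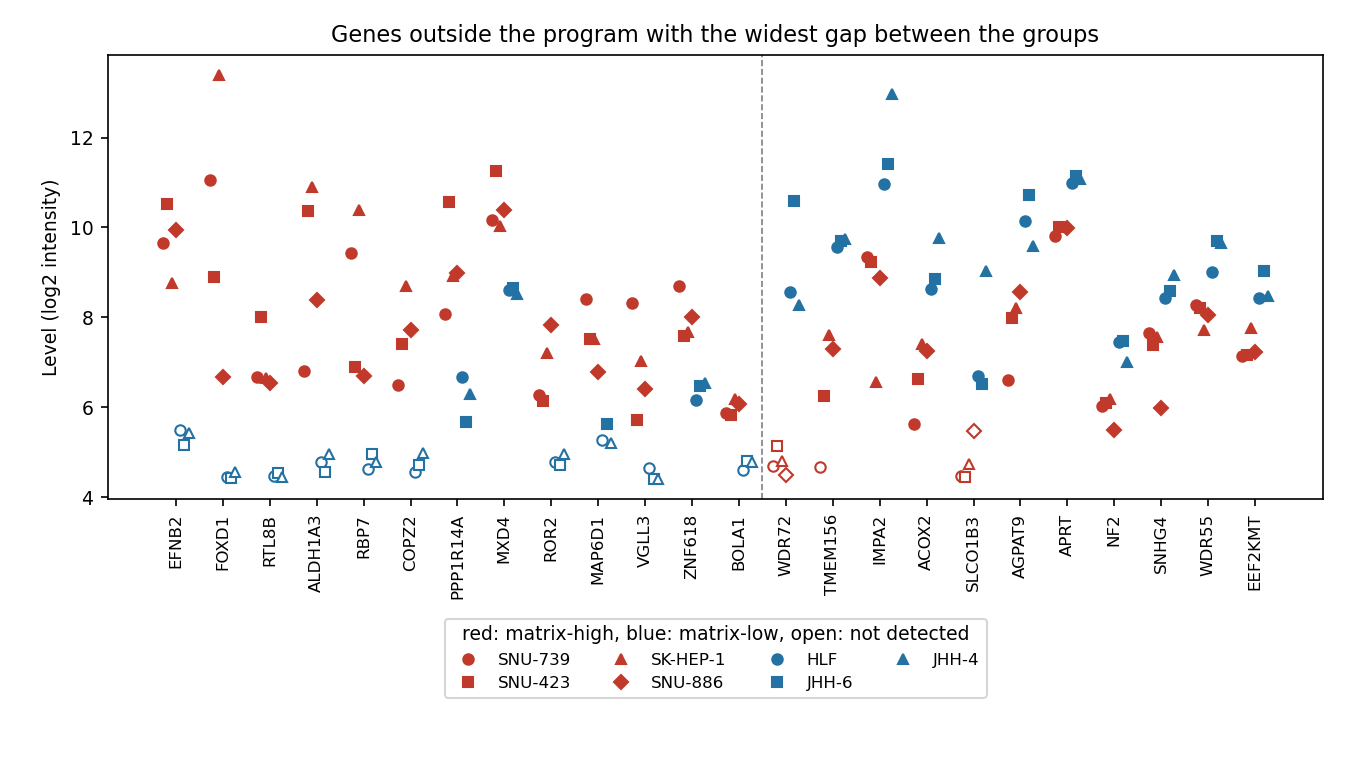
Level (log2 intensity, vertical axis) of the described genes outside the program with the widest gap between the groups, 1 point per line, with matrix-high lines in red, matrix-low lines in blue and open symbols where the gene was not detected. Genes left of the dashed line lie higher in the matrix-high lines, with EFNB2 at 8.76 to 10.53 against 5.16 to 5.49; those on the right lie lower, with WDR72 at most 5.14 against 8.28 to 10.60.

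WDR72, a gene known for its part in enamel formation, had the widest downward gap. It was at 10.60 in JHH-6, 8.55 in HLF and 8.28 in JHH-4, and at most 5.14, not detected, in the 4 matrix-high lines (at least 17.8-fold lower, limma adjusted p = 0.393). SNU-475 did not follow the matrix-high lines, with a level of 9.26. SLCO1B3, a hepatocyte uptake transporter, was at 9.02 in JHH-4, 6.69 in HLF and 6.53 in JHH-6 and not detected in the matrix-high lines or in SNU-475.

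IMPA2, an inositol monophosphatase, was at 12.96 in JHH-4, 11.41 in JHH-6 and 10.96 in HLF, against 9.33 in SNU-739, 9.24 in SNU-423, 8.87 in SNU-886 and 6.56 in SK-HEP-1 (difference -3.27, SE 0.78). ACOX2, a peroxisomal oxidase of bile acid synthesis, was at 8.63 to 9.77 against 5.62 to 7.40, and AGPAT9, an enzyme of glycerolipid synthesis, at 9.59 to 10.73 against 6.61 to 8.57. APRT, which salvages adenine, was at up to 11.14 against 9.82 to 10.02, a narrow range within each group (difference -1.11). TMEM156 was at 9.58 to 9.75 in the matrix-low lines and from 4.67, not detected, in SNU-739 to 7.62 in SK-HEP-1. EEF2KMT, a methyltransferase of elongation factor 2, the nucleolar gene WDR55 and the non-coding SNHG4 differed by -1.32, -1.39 and -1.51. All genes of this paragraph had a limma adjusted p of 0.973.

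SNU-475 lay nearer the matrix-high mean than the matrix-low mean for 190 of the 330 genes separated upwards (57.6%) and for 359 of the 503 separated downwards (71.4%). The same share over all tested genes was not computed, so these shares have no background to be read against. Over the genes outside the lists, the correlation of SNU-475 was highest with SNU-886 (r = 0.897) and JHH-6 (r = 0.880). It was lowest with SK-HEP-1 (r = 0.834). Of the widest-gap genes, SNU-475 was nearer the matrix-high mean in 10 of 15 upward and 8 of 15 downward. In the 10 lung and pancreas lines, read on another array design, the correlation of each such gene's level with the program mean had no common sign. It was positive for 5 and negative for 7 of 12 upward genes with a value, from -0.39 to 0.65, the highest being FOXD1. It was positive for 8 and negative for 7 of 15 downward genes, from -0.69 (IMPA2) to 0.57 (TMEM156).

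Lists of stress genes and other genes are described by counts and medians, and none was tested as a list. Over all tested genes 45.9% of differences were positive, the median was -0.05 and 6.13% of genes were separated in either direction. A single line could set a list's median: of 32 list medians, 17 changed sign when 1 of the 7 lines was left out. The integrated stress response, in which eIF2 alpha phosphorylation induces ATF4 and its amino acid genes, had 26 tested members, of which 13 were higher on average in the matrix-high lines and none was separated in either direction; the median difference was -0.02, with -0.32 without JHH-6 and 0.16 without SNU-423. ASNS, asparagine synthetase, a main ATF4 target, gave the largest difference, which rested on 1 line. It was at 12.72 in SK-HEP-1, 12.21 in SNU-739, 12.07 in JHH-4, 11.73 in HLF, 11.43 in SNU-886 and 10.29 in SNU-423, but at 4.51, not detected, in JHH-6. Without JHH-6 the difference of 2.22 became -0.24. GDF15, a secreted stress cytokine, was highest in SK-HEP-1 at 14.12 and between 9.46 and 12.07 elsewhere.

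The unfolded protein response list had 25 tested members, 17 of them higher on average, none separated and a median of 0.14, which was 0.02 without SNU-739. HSPA5 (BiP), the main chaperone of the endoplasmic reticulum, was lowest in JHH-6 (8.08) and SNU-423 (8.61) and highest in SK-HEP-1 (11.61), so that it followed single lines. SEC24D, a coat protein that cells need to export procollagen, was at 9.59 in SNU-886, 9.10 in SNU-423, 8.31 in SNU-739 and 7.39 in SK-HEP-1, against 7.26 to 7.72 in the matrix-low lines. The groups met only in SK-HEP-1, and the difference of 1.17 had a limma adjusted p of 0.973.

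Of 25 heat shock genes, DNAJB1, a co-chaperone of HSP70, was separated upwards (10.55 to 10.78 against 9.97 to 10.24) and HSPD1, the mitochondrial chaperonin, downwards (12.25 to 12.87 against 12.94 to 13.24). These 2 of 25 compare with 6.13% over all tested genes. Each gap was under 1 log2 unit, and the list median of 0.13 became -0.05 without JHH-4. HSPA2 had the largest difference, 2.25, with HLF (8.57) above 3 of the matrix-high lines. Metallothioneins, which bind zinc and copper, were abundant without separation: 7 were tested, and MT2A ranged from 11.98 in SNU-739 to 15.37 in HLF. MT1F, at 6.06 in HLF and 9.15 to 12.29 in the other lines, differed by 1.37 with HLF and by -0.22 without it.

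Of 46 tested NRF2 target and antioxidant genes, 18 were higher on average in the matrix-high lines, 1 was separated and the median was -0.18, with -0.42 without SNU-886 and 0.10 without JHH-6. NQO1, a quinone reductase induced by NRF2, was at 11.07 in HLF and 10.00 in JHH-6, 7.89 in SNU-739 and 5.10 in SNU-423, and not detected in JHH-4, SK-HEP-1 or SNU-886. AKR1B10, an aldo-keto reductase, was at 15.25 in JHH-6, 12.05 in SNU-886 and 9.43 in JHH-4 and at most 5.51 elsewhere. Its relative AKR1B1 was at 14.90 in SNU-886, 12.22 in SNU-423 and 12.08 in SK-HEP-1 but not detected in SNU-739 (5.40). High NRF2 target levels thus fell in lines of both groups, with different targets in each. The separated gene was FTL, the light chain of ferritin, at most 15.48 against 15.53 to 15.62.

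Of 23 DNA damage and growth arrest genes, 17 were higher on average and the median was 0.41, or 0.15 without JHH-4. CDKN1A (p21), a cell cycle inhibitor, had 12.44 in SK-HEP-1, 11.80 in SNU-886, 9.64 in SNU-423 and 8.98 in SNU-739, against 9.60 in HLF, 8.98 in JHH-6 and 6.97 in JHH-4 (difference 2.20, limma adjusted p = 0.973), and its signal in SNU-739 and JHH-4 was not called detected. GADD45B, a stress-induced growth arrest gene, was the only one separated, with a gap of 0.03. BTG2, an antiproliferative gene, was at 5.60 to 7.87 in the matrix-high lines and not detected in the matrix-low lines, where HLF (5.62) reached the level of SNU-886 (5.60).

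Of 25 hypoxia genes, 5 were higher on average (median -0.26, or -0.52 without SNU-886), and HIF1A, the oxygen-regulated transcription factor, was at 9.48 to 9.85 against 10.15 to 10.99. Of 28 glycolysis and transport genes, 8 were higher (median -0.29), and the enzymes GPI and GAPDH were separated downwards by 0.19 and 0.01. Among the exceptions, PFKP, the platelet isoform of phosphofructokinase, was at 12.88 to 13.23 in the matrix-high lines and 13.57 in HLF but at 9.86 in JHH-6 and 6.30 in JHH-4. SLC16A3, a lactate exporter, showed a like pattern, with 10.38 to 13.08 in the matrix-high lines, a level within that range in HLF, 7.74 in JHH-4 and 7.02 in JHH-6. For both genes and for vimentin, HLF stood with the matrix-high lines and apart from the JHH lines.

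**Figure D3:**
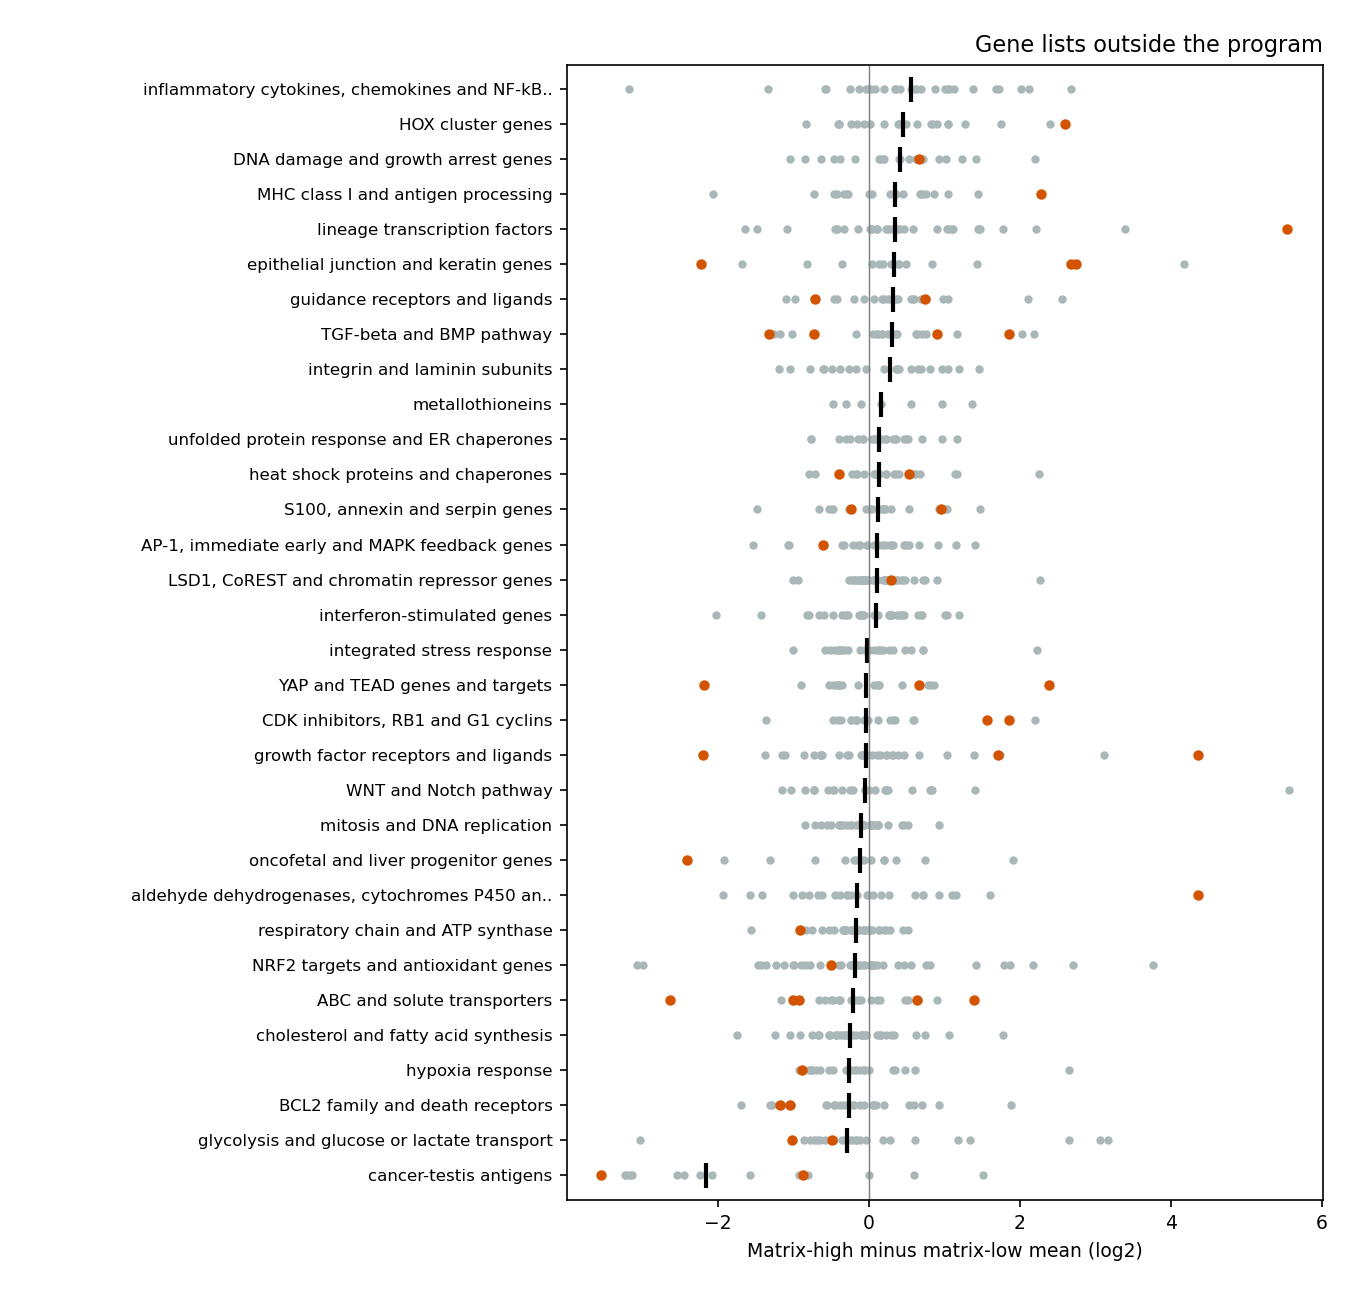
Matrix-high minus matrix-low mean (log2, horizontal axis) for the tested members of 32 gene lists outside the program, 1 point per gene, with genes whose groups do not overlap in orange and the list median as a black bar. Medians of the stress lists are -0.26 for hypoxia, -0.18 for NRF2 targets, -0.02 for the integrated stress response, 0.13 for heat shock, 0.14 for the unfolded protein response, 0.16 for metallothioneins and 0.41 for DNA damage genes, and cancer-testis antigens stand lowest at -2.15.

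The other lists had medians between -0.29 and 0.56, except for one. Cancer-testis antigens are X-linked and other genes normally restricted to the germline. Of 35 on the array, 16 were detected in at least 3 lines and so tested. Of these 16, 3 were higher on average in the matrix-high lines. The median difference was -2.15, against -0.05 over all tested genes. Detection in the 3 matrix-low lines alone let a gene enter the test, so the filter had a part in which members were counted. CSAG1, the member with the largest difference, was at 10.25 to 10.58 in the matrix-low lines, 9.77 in SNU-739, 8.76 in SNU-423 and not detected in SK-HEP-1 and SNU-886. MAGEC2 was at 12.17 in HLF, 10.72 in SNU-739, 10.50 in JHH-4 and 6.16 in JHH-6, at 5.29 in SNU-886 and not detected in the other 2 lines. SNU-739 also carried XAGE1B (13.23) and PAGE5 (11.06) within the range of the matrix-low lines, whereas XAGE1B was not detected in SK-HEP-1 or SNU-886. The list median was -1.23 with the authors' processed values and -1.29 without background correction. The only member with a difference above 1 was MAGED1 (1.51), which is not restricted to the germline. Probes of near-identical family members cannot be told apart.

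Of 31 inflammatory genes, 24 were higher on average and none was separated. Their median of 0.56 rested on single lines: it was -0.02 without SK-HEP-1 and 1.20 without SNU-739. VCAM1, an adhesion molecule for leukocytes, was at 9.26 to 11.84 in the matrix-low lines and at 9.89, 9.79, 5.64 and 4.85 in SNU-423, SNU-886, SNU-739 and SK-HEP-1. CXCL6, a neutrophil chemokine, was high in SK-HEP-1 (11.77) and SNU-886 (10.22) and at most 7.28 elsewhere. HLA-B, which presents peptides to T cells, was separated, at 11.08 to 13.23 against 9.36 to 10.61. Interferon-stimulated genes had none separated and a median of 0.09, with -0.22 without JHH-6 and 0.41 without SNU-739.

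Of 17 tested epithelial junction and keratin genes, 13 were higher on average in the matrix-high lines. KRT19 was at 14.07 in SNU-423, 12.79 in SK-HEP-1, 11.76 in SNU-886 and 8.25 in SNU-739, with 13.24 in JHH-4 and no detection in HLF or JHH-6. KRT17 (6.58 to 8.97 against 4.76 to 5.71) and JUP, the junction protein plakoglobin (8.18 to 10.01 against at most 8.0), were separated upwards, and the desmosomal PKP2 downwards by 0.01. SFRP1, a secreted WNT inhibitor, had the largest difference of any listed gene outside the program, 5.56, without separation: it was at 14.24 in SNU-423, 13.36 in SK-HEP-1 and 10.56 in SNU-739 but not detected in SNU-886 (5.02).

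KDM1A, the enzyme the series was designed around, was at 11.33 to 11.87 in the matrix-high lines and 11.22 to 11.30 in the matrix-low lines (difference 0.29, gap 0.02, limma adjusted p = 0.986). The list of LSD1, CoREST and other chromatin repressor genes had 46 tested members, of which 28 were higher on average, with a median of 0.11. RCOR2, a CoREST family member, was at 10.89 in SNU-739 and from 4.67 to 6.99 in the other 6 lines.

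The whole profiles did not fall into the 2 groups. Over the 13568 genes outside the lists, pairs of matrix-high lines had a mean Pearson correlation of 0.868, pairs of matrix-low lines 0.873 and pairs across the groups 0.872, over 6, 3 and 12 pairs. These correlations are across genes of arrays normalized together. The line most like HLF was SNU-423 (r = 0.887) and the line most like JHH-6 was SNU-886 (r = 0.893). Only SK-HEP-1, SNU-423 and SNU-886 had their nearest line within their own group. The first principal component, with 23.7% of the variance, placed SNU-886 and JHH-6 at one end and HLF, SK-HEP-1 and SNU-739 at the other.

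Each line also had genes of its own. The 3 genes per line that stood farthest above the other 6 lines included, in SK-HEP-1, the cytokine IL1B (14.63, next 9.16 in JHH-6), the decoy receptor TNFRSF6B (11.29, next 6.41) and the alkaline phosphatase ALPL (12.55, next 7.84). SNU-739 had the smooth muscle actin ACTG2 (13.55, next 7.23) and the elastic fibre protein MFAP4 (11.65, next 7.27), and SNU-475 had ACTG2 at 14.71. SNU-423 had SLC2A2, the glucose transporter of liver and pancreatic beta cells (10.21, next 5.89), and the placental gene PSG4 (11.71, next 7.70). SNU-886 had the transcription factor EGR2 (10.11, next 6.13) and complement factor B, CFB (12.04, next 8.82).

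Among the matrix-low lines, HLF stood out by germline antigens, PAGE2 (13.64, next 9.07), SPANXB2 (12.88, next 8.82) and VCX (10.72, next 6.66). JHH-4 stood out by the epithelial trafficking protein MAL2 (12.26, next 7.21) and the semaphorin SEMA6A (11.68, next 7.96). JHH-6 had RASIP1, a RAS-interacting protein known from endothelial cells (12.31, next 6.33), and the forkhead factor FOXQ1 (12.98, next 9.55). Genes at least 3 log2 units above every other line numbered 23 in SNU-739, 14 in SK-HEP-1, 13 in JHH-4, 8 in SNU-423 and HLF and 5 in SNU-886 and JHH-6.

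**Figure D4:**
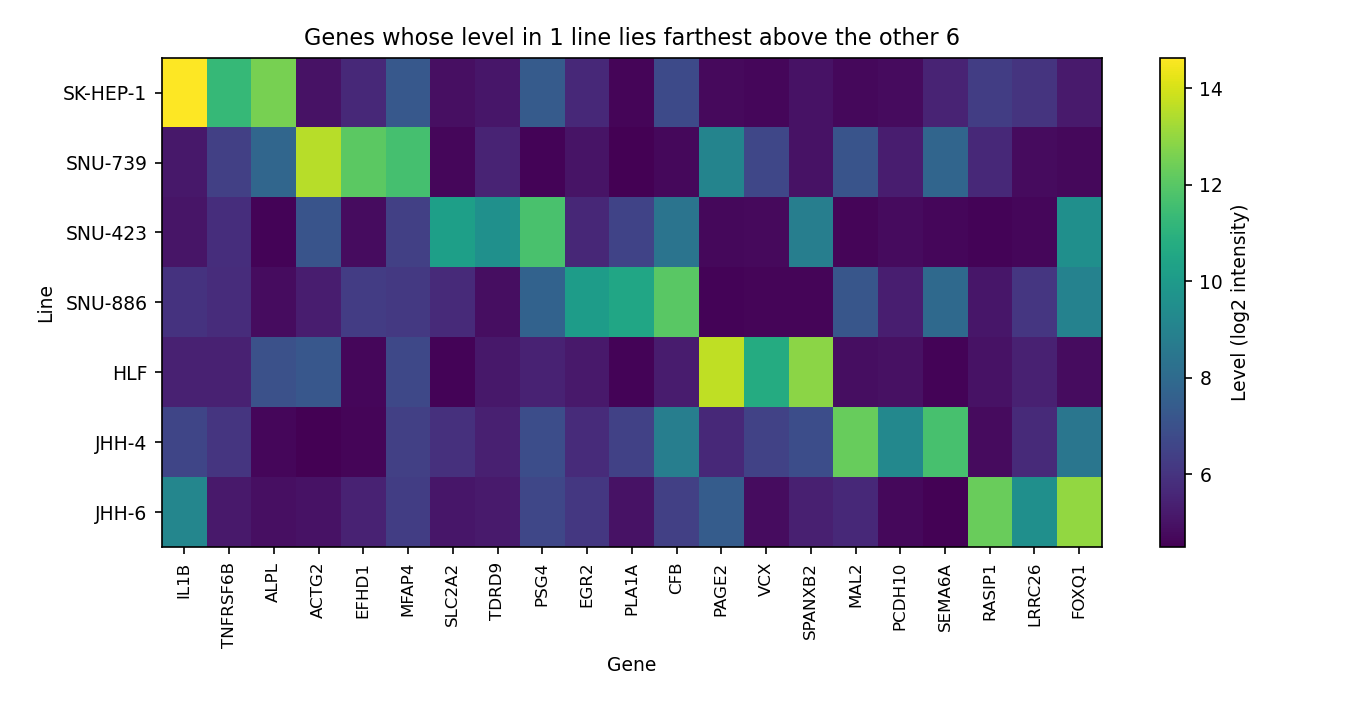
Level (log2 intensity, colour) of the 3 genes per line that stand farthest above the other 6 lines, with genes along the horizontal axis and the 7 lines along the vertical axis. The brightest cells form a diagonal because the genes were chosen line by line, with IL1B in SK-HEP-1 at 14.63 and PAGE2 in HLF at 13.64.

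In SK-HEP-1, a group of undetected genes were neighbours on chromosome 13. Genes were put in chromosome order by RefSeq (GRCh38.p14), by a rule chosen after the data were seen, keeping for each line those detected in at least 5 of the other 6 lines and above 6 in all 6. Runs of at least 3 successive genes that were not detected and below 6 in the line were then listed, over 6898 to 7017 genes per line. SK-HEP-1 had 1 run, of 9 genes: MPHOSPH8, PSPC1, ZMYM5, ZMYM2, CRYL1, IFT88, EEF1AKMT1, XPO4 and LATS2, at 4.48 to 5.00, and none of the other lines had a run longer than 3. In the other 6 lines XPO4, a nuclear transport receptor, was at 9.06 to 10.23, MPHOSPH8 at 8.52 to 9.87, LATS2, a kinase of the Hippo pathway, at 6.36 to 7.26 and ZMYM2, a partner of the LSD1 and CoREST complex, at 6.97 to 8.43. Within the stretch IL17D, at 5.91, was called detected in SK-HEP-1 and had 5.77 to 7.98 in the others. The next gene after LATS2, SAP18, was at 7.21 in SK-HEP-1, within the range of the others. Before MPHOSPH8, TPTE2 (4.89) and TUBA3C (5.00) were not detected in SK-HEP-1 or in several other lines. The edge of the stretch on that side is therefore not defined.

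**Figure D5:**
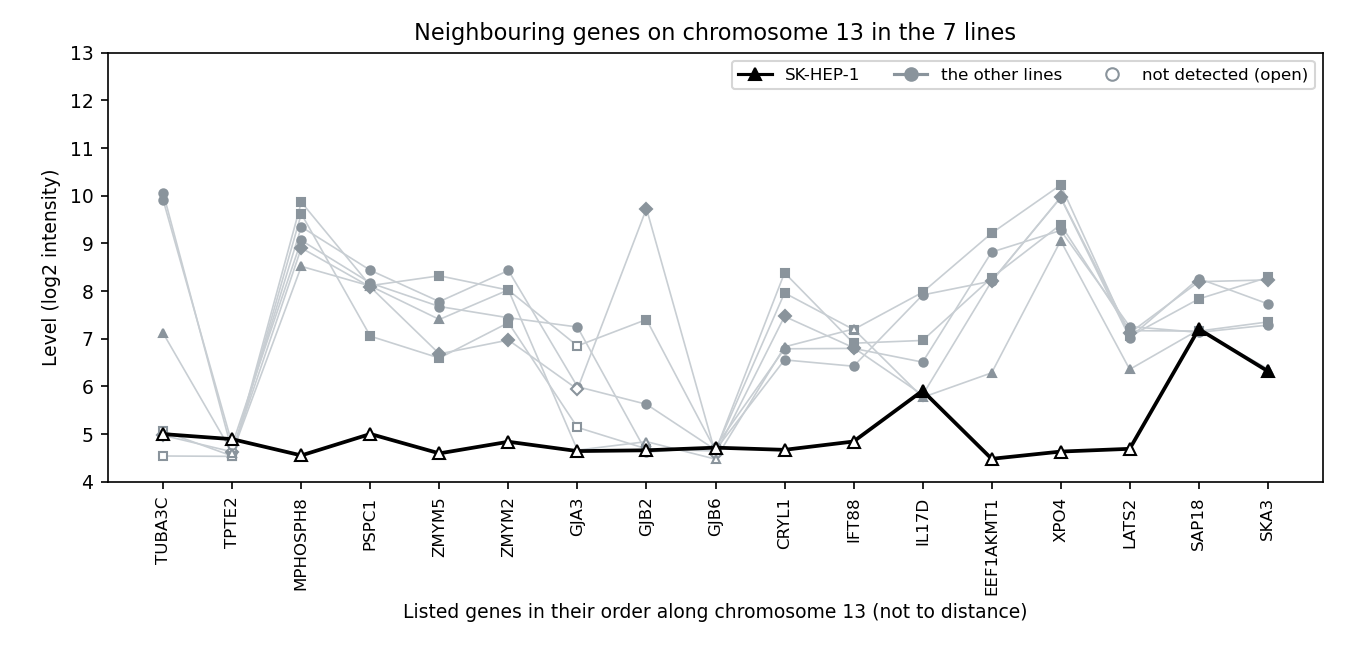
Level (log2 intensity, vertical axis) of genes in chromosome order (horizontal axis, no distance scale) along the stretch of chromosome 13, with SK-HEP-1 in black, the other 6 lines in grey and open symbols where a gene was not detected. SK-HEP-1 lies between 4.48 and 5.00 at the 9 genes of the run from MPHOSPH8 to LATS2 and returns to the other lines at SAP18 (7.21). IL17D within the stretch is at 5.91. TUBA3C and TPTE2 before the run, and GJA3, GJB2 and GJB6 within it, are undetected in SK-HEP-1 and in several other lines.

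On chromosome 9, SK-HEP-1 also lacked MTAP, an enzyme of methionine salvage (4.71 against 9.19 to 11.31). CDKN2A, which encodes the cell cycle inhibitor p16, was at 4.69, not detected, in SK-HEP-1 against 7.29 to 9.13. HLF, at 8.35, was not called detected for CDKN2A either. SK-HEP-1 had the lowest CDKN2B level (5.46, next 7.17 in JHH-6), but CDKN2B was called detected in SK-HEP-1 and not in JHH-6. The flanking gene KLHL9 was detected in all 7 lines. SNU-739 and JHH-4 each had 1 run of 3 genes. The cause of these runs was not tested, and copy number was not measured.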

How the data were processed

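RNA of each line was labelled with biotin and hybridised to 1 array, per the labels' protocols. The raw tables the authors deposited hold intensity per gene and a detection p-value, per the file headers; the submitters' processing notes name BeadStudio without a version. Some bright genes miss the detection threshold in these tables: of 4858 genes above a level of 8 in all 7 lines, 110 were detected in fewer than 3 and so were not tested. A second table by the authors holds processed intensity, whose normalization is unstated, and served as an alternative.

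Each array's background was removed by normexp (limma 3.58.1, R 4.3.3). The mean and SD of the negative controls were read from the median signal at detection p-values of 0.1 to 0.9 (control mean 85.5 to 116 in 6 lines and 176 in SK-HEP-1), because limma's own inference from these p-values left values within 0.0988 log2. After an offset of 16, quantile normalization over the 7 arrays and log2 followed. The brightest row per gene was kept. Of 37879 names, 16013 were current RefSeq symbols (GRCh38.p14), 2681 were updated through a synonym and 19185 stand as listed. Genes detected in at least 3 of the 7 lines entered limma's lmFit and eBayes without covariates, and a call needed a p under 0.05 after Benjamini-Hochberg adjustment. A fold written "at least" sets the higher group's mean against, per undetected line, the higher of the detection floor and the gene's own value. SNU-475, deposited in a raw table of its own, was normalized with the 7 lines on 8 arrays, and the lung and pancreas lines among themselves. Python 3.11.15, pandas 2.3.3 and SciPy 1.17.1 computed the summaries, and the fit was tested on simulated data.

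The lines, the groups and the gene lists were chosen with earlier results of these data known. Named genes are the 3 markers, the 12 program genes with the largest difference, up to 15 genes in each direction outside the program with the widest gap between the groups, the largest or separated members of each list, KDM1A and the 3 genes per line farthest above the others. Names that are only placeholders were not described. Members beyond these, and genes set beside another in the text, were named after their values were seen. Alternatives covered the background, scaling, offset, detection filter, processed values, array set and each line left out. The level of 1 list member is not reported here.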

Additional observations from a re-analysis of the deposited data

Results flagged for a closer look

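Within the 4 matrix-high lines, 149 described genes and list means were examined for 1 line apart from the other 3, by the gap to the nearest line as a share of the group's whole range, and 21 exceeded Dixon's critical value for a group of 4. Chance flags about 1 in 20 such groups, and many of these genes were chosen because 1 line stood out.

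SNU-739 was low in VIM (14.49, next 14.74, share 0.932) and APRT (9.82, next 9.99, share 0.854), where the whole range was narrow. It was lower by more than 1 log2 unit in SPP1 (7.61, next 11.11, share 0.956), FTL (next line 15.37, share 0.925) and ABCC4 (7.65, next 9.12, share 0.856), and slightly lower in NDUFV2 (11.70, next 11.92, share 0.856). It was high in PAGE2 (9.07, next 4.74, share 0.967) and VCX (6.66, next 4.75, share 0.942). In the other 3 matrix-high lines too, SPP1, FTL, ABCC4 and NDUFV2 lay below every matrix-low line.

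SK-HEP-1 was low in COL5A1 (7.89, next 11.89, share 0.836) and IMPA2 (6.56, next 8.87, share 0.832) and in the mean of the TGF-beta and BMP pathway list (7.38, next 8.80, share 0.880). It was high in IL1B (14.63, next 5.96, share 0.908), TNFRSF6B (11.29, next 6.41, share 0.883) and EEF2KMT (7.76, next 7.23, share 0.866). Its array had the highest background of the 7; the part of this in these values was not tested.

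SNU-423 was high in RTL8B (next 6.68, share 0.902), EFNB1 (7.03, next 5.99, share 0.835), TDRD9 (9.56, next 5.51, share 0.860) and SPANXB2 (8.82, next 4.98, share 0.912), and low in SPRED2 (next 9.05, share 0.886). SNU-886 was high in EGR2 (10.11, next 5.67, share 0.871) and low in SNHG4 (5.98, next 7.39, share 0.843).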

How the results depend on the processing

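The count of 0 called genes, also 0 outside the lists, stayed at 0 without background correction, with median scaling, 10 arrays, processed values, offset 50, a detection limit of 0.01, no detection filter, and trend with robust fitting. Leaving out lines gave 0 to 2 calls for all genes and for those outside: 2 without SK-HEP-1 (EFNB2 among them), 1 without SNU-886 (PXDN, a matrix peroxidase, difference 4.55, limma adjusted p = 0.0238) and 1 without HLF (TMED3, 8.21, limma adjusted p = 0.0301). Leaving out both SNU-886 and HLF, chosen after the data were seen, gave 1 call (TMED3, 8.53, limma adjusted p = 0.00413). With limma's inferred controls it was 1 (APRT), but values there lie too close together to test results. The program difference of 0.89 was 0.63 to 1.07 without single lines, 1.84 with the 3 markers, 1.67 with collagens alone and 0.00196 with inferred controls. The difference of ASNS ran from -0.24 without JHH-6 to 3.55 without JHH-4, and that of MT1F from -0.22 without HLF to 2.32 without JHH-4, with -0.78 without SNU-886 and HLF. Median scaling moved the median of all genes by 0.11, and medians near 0, such as the integrated stress response (0.08 with it, 0.03 with processed values), changed sign. No paired analysis applied, because each array is of a different cell line. The number of arrays, 1 per line, limits all differences.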

Other observations

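Some genes were not detected in 1 line and lay at least 3 log2 units higher in all of the other 6 lines, a rule chosen after the data were seen, as were the genes named here. They numbered 16 in JHH-6, 15 in HLF, 11 in JHH-4, 9 in SK-HEP-1, 6 in SNU-739 and 2 in each of SNU-423 and SNU-886. Among those of JHH-6, beside ASNS and VIM, were OAT, ornithine aminotransferase (4.95 against 10.14 to 12.50), BCAT2, the mitochondrial branched-chain aminotransferase (4.68 against 9.50 to 11.90), the ceramide synthase CERS6 (4.70 against 10.31 to 11.49) and malic enzyme ME1 (4.42 against 8.35 to 10.07). HLF lacked RB1, the retinoblastoma protein (4.85 against 8.11 to 9.17), the cathepsin CTSZ (4.91 against 9.98 to 11.76) and the nuclear receptor RXRA (5.23 against 8.36 to 11.41). JHH-4 lacked PLS3, the actin bundler T-plastin (4.74 against 10.78 to 11.76). SNU-475 had all 10 of these genes detected.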
